A study of Mus musculus with 18 samples.

Results

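The comparison covered cells labelled as osteoblasts from 2 sources, differentiated in culture from mouse embryonic stem cells (ESC-OB) or grown out of mouse bone chips. Its members were the 6 libraries of 2 labelled groups, out of 18 in the series: ESC-OB GFP+, 3 replicates, and Bonechip-OB GFP+, 3 replicates. All of the cells carried the Col2.3GFP transgene, in which a fragment of the Col1a1 promoter drives green fluorescent protein (GFP), so the sort selected for activity of an osteoblast collagen promoter and not for a complete osteoblast programme. The stem cell derived libraries were sorted GFP+ cells, given as GFP+ (hi) in the sample titles, from mouse Col2.3GFP ES cells after osteogenic differentiation. The bone chip libraries were GFP+ (hi) cells sorted from cultures of bone chips of Col2.3GFP transgenic mice, also after osteogenic differentiation. The labels gave no age, sex or number of animals or of ES cell lines, and nothing said that replicates came from separate animals or cultures, so p-values measured the spread between libraries, which may be technical. ES cells (ESC, 3 libraries) shared the count table of the ESC-OB cells. They are taken here as undifferentiated from their titles, though their sample records also carry a treatment entry of osteogenic differentiation. GFP- cells from the bone chip cultures (a heterogeneous population, 3 libraries) shared the count table of the bone chip osteoblasts.

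Both groups were cultures, and each came in a table of its own. Cell source, culture and table therefore changed together, and their parts in any difference below cannot be told apart. The tables were joined by gene symbol: 16727 symbols stood in both, 3027 only in the ESC table and 214 only in the bone chip table. Library totals ran from 20680956 to 26601417 counts for ESC-OB GFP+ and from 13228266 to 15221973 for bone chip GFP+ (hi).

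Osteoblasts lay down bone by secreting type I collagen and then mineralising it. The transcription factor Runx2 commits cells to the lineage, Sp7 (osterix) acts after it, and the products of the mature cell include osteocalcin (Bglap), bone sialoprotein (Ibsp) and alkaline phosphatase (Alpl). Osteoblasts that become buried in matrix turn into osteocytes, which make Dmp1, Mepe, Phex and sclerostin (Sost). Keratins mark epithelia: Krt5 and Krt14 are a pair of basal keratins of layered epithelium, and Krt8 and Krt18 are those of simple epithelium. Neither kind is a product of osteoblasts.

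The 2 groups differed across most of the transcriptome. Of 14200 genes tested with edgeR's quasi-likelihood test at an adjusted p under 0.05, 5345 (37.6%) were higher in ESC-OB GFP+ and 4578 (32.2%) were lower, which is the background against which each count of genes below is to be read. A gene entered the test once its counts reached the minimum in 3 libraries, so a gene that reached it in 1 group only could hardly come out in the other direction. This was so of 2001 genes for ESC-OB GFP+ and of 473 for bone chip GFP+ (hi), and of the 11627 genes that reached the minimum in every library, 32.6% were higher and 35.3% lower. Differences were often large: 825 genes were higher by at least 4 on the log2 scale and 478 were lower by as much. Correlations of log expression between libraries lay between 0.958 and 0.976 within ESC-OB GFP+, between 0.98 and 0.986 within bone chip GFP+ (hi) and between 0.649 and 0.696 across the groups. Levels are given as CPM (read counts relative to a common library size) scaled with the trimmed mean of M-values (TMM) over these 6 libraries, and differences as log2 fold changes of ESC-OB GFP+ over bone chip GFP+ (hi), with the standard error (SE).

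The scaling mattered. The TMM factors were 1.55 to 1.60 in ESC-OB GFP+ and 0.614 to 0.658 in bone chip GFP+ (hi), where 2 genes alone, Col1a1 and the ribosomal RNA precursor Rn45s, each took a large share of the counts. With library totals in place of these factors, the median log2 fold change over all genes tested moved from 0.12 to 1.43, and the calls split into 10500 higher (73.9%) and 1640 lower (11.5%). A difference of about 1 on the log2 scale therefore depended on this choice, and families whose direction turned are named with both values.

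Col1a1, the gene whose promoter drives the reporter, was present in every ESC-OB library but low. It took 0.324, 0.774 and 0.599% of the counts in the 3 ESC-OB libraries and 12.8, 12.1 and 14.4% in the bone chip libraries. The means were 0.566 ± 0.227% and 13.1 ± 1.18% (SD, n = 3 each, exact two-sided permutation p = 0.1, the smallest that 3 against 3 allows). On the TMM scale Col1a1 stood at 2068, 5059 and 3871 CPM against 209300, 183700 and 227300 CPM, a log2 fold change of -5.82 ± 0.53 (adjusted p = 2.3e-05), and with library totals it was -4.51. In bulk RNA, fewer cells of a type and less RNA per cell cannot be told apart. The gene lies at chr11:94797538-94814356 (mm9, + strand). Sp7, at chr15:102187040-102197285, was at 0.288, 3.73 and 0.616 CPM in ESC-OB GFP+ and at 139.6, 112.3 and 171.3 CPM in the bone chip cells (-6.57 ± 0.77, adjusted p = 9.4e-05). Krt14, at chr11:100064476-100068862, went the other way: it held 441, 391 and 396 CPM in ESC-OB GFP+, while 3, 4 and 4 reads were counted in the bone chip libraries (9.96 ± 0.21, adjusted p = 2.0e-07). For all 3 genes the libraries of the groups did not overlap, as was so for 75.6% of all genes tested. Sp7 reached the minimum count in bone chip GFP+ (hi) only and Krt14 in ESC-OB GFP+ only, so neither could readily come out in the other direction. By their levels, the ESC-OB GFP+ libraries carried collagen transcripts, little Sp7 and a keratin that the bone chip osteoblasts hardly had. The levels of Sp7 and Krt14 did not match the label of osteoblast, and the libraries are called here by their label only.

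The start regions of 4 genes on which the contrast turned are shown for their promoter letters: 3 bone genes that were lower in ESC-OB GFP+ and Krt14. They are the 250 bases before the start site in RefSeq (GRCm38.p6), read 5′ to 3′ on the strand of the gene, from chr3:88384467-88384716 (- strand, Bglap), chr9:7272264-7272513 (+ strand, Mmp13), chr5:104299037-104299286 (+ strand, Ibsp) and chr11:100206031-100206280 (- strand, Krt14). Capitals mark every match, on either strand, to the core letters bound by Runx factors, TGTGGT, and to the letters of the TATA box, TATAAA, both of which were also searched as their reverse complement. No 2 matches overlap.
Bglap: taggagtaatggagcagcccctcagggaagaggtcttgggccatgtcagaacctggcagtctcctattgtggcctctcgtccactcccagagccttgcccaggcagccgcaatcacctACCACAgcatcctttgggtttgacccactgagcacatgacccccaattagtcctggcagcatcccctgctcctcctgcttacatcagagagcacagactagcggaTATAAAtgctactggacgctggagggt
Mmp13: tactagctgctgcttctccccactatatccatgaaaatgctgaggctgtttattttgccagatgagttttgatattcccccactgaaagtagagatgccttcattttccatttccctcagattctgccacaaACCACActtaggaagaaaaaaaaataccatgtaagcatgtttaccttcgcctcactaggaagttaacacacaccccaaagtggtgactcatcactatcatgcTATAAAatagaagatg
Ibsp: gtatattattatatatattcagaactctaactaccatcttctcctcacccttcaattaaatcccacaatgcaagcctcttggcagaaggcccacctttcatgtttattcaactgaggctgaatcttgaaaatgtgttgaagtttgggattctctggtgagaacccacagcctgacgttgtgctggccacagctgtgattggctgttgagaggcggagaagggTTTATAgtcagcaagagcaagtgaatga
Krt14: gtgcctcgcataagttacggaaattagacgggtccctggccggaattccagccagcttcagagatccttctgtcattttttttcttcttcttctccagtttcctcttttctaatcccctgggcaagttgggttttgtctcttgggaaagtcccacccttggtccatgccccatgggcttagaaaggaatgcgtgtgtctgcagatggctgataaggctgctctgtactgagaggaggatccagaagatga
Bglap held the Runx letters from position -132 and TATAAA from -27, and Mmp13 held them from -118 and -16. Ibsp held only the TATA letters, from -28, and Krt14 held neither. Of 32851 RefSeq mouse promoter windows of this length, 14% had the Runx letters and 12.4% the TATA letters, so each match is a description of these windows and not evidence of binding.

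The genes of the mineralising matrix were lower in ESC-OB GFP+ nearly throughout. Of 32 tested genes of osteoblast matrix and mineralisation, 28 were lower, 3 were higher (Mgp, Ogn and Slc20a2) and 1 (Slc20a1) was not called, with a median log2 fold change of -3.25 against 0.12 over all genes. With library totals the median was -1.94, with 20 lower and 6 higher. Of the 27 that reached the minimum count in every library, 23 were lower and 3 higher (median -2.85). Bglap, osteocalcin, stood at 0.048, 0.917 and 0.056 CPM in ESC-OB GFP+ and at 489, 403 and 901 CPM in bone chip GFP+ (hi), a log2 fold change of -10.87 ± 0.86 (adjusted p = 1.1e-05), which came to -13.34 without ESC-OB replicate 2. Its close copies Bglap2 (-10.60) and Bglap3 (-6.62) were lower as well, but reads of these 3 genes can be split between them, and each value is uncertain on that ground. Alpl, the phosphatase that frees phosphate for mineral, was at 7.90, 48.9 and 19.9 CPM against 4897, 4840 and 4395 CPM (-7.53 ± 0.70, adjusted p = 2.7e-05, and -8.41 without ESC-OB replicate 2). All 3 ESC-OB libraries lay far below every bone chip library for these genes.

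Of the secreted phosphoproteins, Ibsp spread widely among the ESC-OB libraries. Ibsp, which binds collagen and mineral, had 0.408 CPM in ESC-OB replicate 1, 956 in replicate 2 and 169 in replicate 3, against 88880, 82180 and 91050 CPM in the bone chip libraries (-7.86 ± 1.98, adjusted p = 0.007). Even the ESC-OB library with the most Ibsp was far under the bone chip cells, and the library with the least was near 0. Osteopontin (Spp1), made by osteoblasts, macrophages and many epithelia, was at 231, 639 and 366 CPM against 6301, 5396 and 8439 CPM (-4.03 ± 0.41). Sparc (osteonectin), which is also made by cells with a basement membrane, differed less: 5610, 4637 and 5096 CPM against 39910, 36220 and 42760 CPM (-2.95 ± 0.28). Enzymes of mineralisation followed: Phospho1, which frees phosphate inside matrix vesicles, differed by -7.26 ± 0.29 and Smpd3, the sphingomyelinase needed for mineralisation, by -5.65 ± 0.63. Enpp1 and Ank, which supply the mineral inhibitor pyrophosphate, were lower by under 1 on the log2 scale (-0.76 and -0.77), and both turned to higher with library totals (0.55 and 0.54). Mgp, an inhibitor of calcification, was higher, at 117, 470 and 182 CPM against 30.8, 24 and 34 CPM (3.11 ± 0.48, adjusted p = 0.00049).

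**Figure D1:**
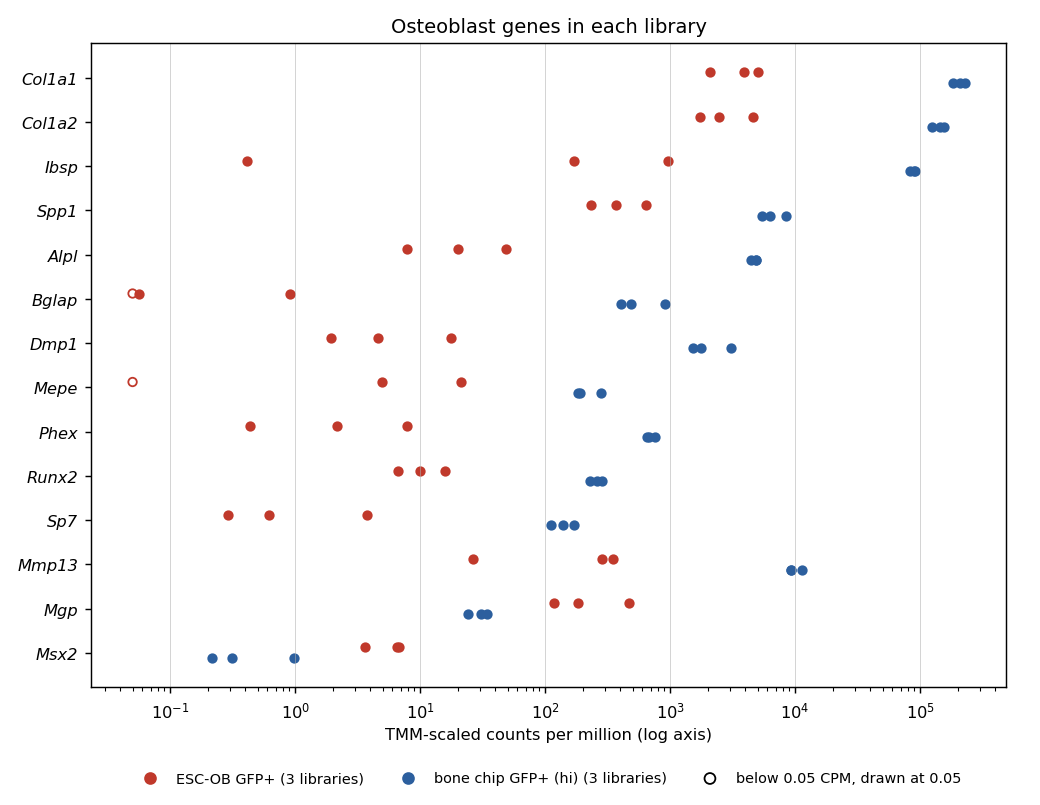
Levels of 14 osteoblast genes in each library, as TMM-scaled CPM on a log axis; red points are the 3 ESC-OB GFP+ libraries, blue points the 3 bone chip GFP+ (hi) libraries and open points values under 0.05 CPM. Red lies left of blue for 12 genes and right of it for Mgp and Msx2, and the red points of Ibsp run from 0.408 to 956 CPM.

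The factors that set the lineage were mixed. Among 28 tested osteogenic transcription factors, 17 passed as lower, 6 as higher and 5 did not pass, and the median was -1.41, which came to -0.10 with library totals, where 13 were lower and 12 higher. Runx2 had 6.61, 15.9 and 9.91 CPM in ESC-OB GFP+ and 260, 227 and 285 CPM in the bone chip cells (-4.58 ± 0.32, adjusted p = 6.0e-06). The libraries did not overlap for Runx2, which was also lower with library totals (-3.27). Mef2c (-6.02 ± 0.28), Runx3 (-5.57 ± 0.51), the homeobox factors Dlx5 (-5.44 ± 0.81) and Dlx3 (-5.05 ± 0.37), and Creb3l1, which drives collagen secretion in osteoblasts (-3.33 ± 0.19), were lower too.

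The factors that were higher were Twist2 (4.71 ± 0.67), Msx2 (3.53 ± 0.53), the Wnt effector Lef1 (2.77 ± 0.40), Msx1 (2.29 ± 0.72), Hey1 (0.97 ± 0.35) and Twist1 (0.84 ± 0.32). All of these but Twist1 stayed under 11 CPM in every library. Twist2, Msx2, Lef1 and Msx1 reached the minimum count in ESC-OB GFP+ only and could hardly come out lower. Another 4 of the 28, Sp7, Dlx3 and Dlx5 among them, reached it in bone chip GFP+ (hi) only and could hardly come out higher. Among the 20 factors that reached it in every library, 2 were higher and 13 lower (median -1.41). Msx2 stood at 6.53, 3.64 and 6.80 CPM against 0.986, 0.216 and 0.311 CPM. Twist1, a brake on Runx2, lost its call in 4 of the 6 fits that left out 1 library, without ESC-OB replicate 2 among them (0.43, adjusted p = 0.136), and Hey1 lost its call in 5 and Msx1 in 3 of the 6. Runx1, Foxc1, Foxc2, Fosl1 and Zfp521 were not called.

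The ESC-OB libraries were not alike in their bone genes. Replicate 1 was the lowest of the 3 for 25 of the 32 matrix genes (78.1%) and for 22 of 28 genes of fibrillar collagen (78.6%), compared with 34% of all genes tested. Replicate 2 was the highest for 24 of the 32 (75.0%), compared with 37.6% of all genes. Mmp13, the collagenase of late osteoblasts and growth plate cartilage, showed the same order, with 26.7, 351 and 284 CPM against 9239, 9332 and 11320 CPM in the bone chip libraries (-5.50 ± 0.86). Mepe had 0.048, 21.1 and 4.95 CPM against 190, 183 and 277 CPM (-4.65 ± 1.16). Without replicate 1, the matrix list still had 28 members lower and 3 higher, with a median of -2.98, and Ibsp was at -7.28 (adjusted p = 8.9e-05). Without replicate 2, the library richest in bone genes, the distance grew: Ibsp was at -10.01, Sp7 at -8.30, Dmp1 at -9.34, Phex at -9.11 and Mepe at -6.47.

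Osteocyte genes were lower in 13 of 15 tested, with a median of -4.33. Of these, 2, Mepe and Sost, reached the minimum count in bone chip GFP+ (hi) only and could hardly come out higher. Of the 13 that reached it in every library 11 were lower and 2 higher (median -2.97). Dmp1, a mineral regulator of the osteocyte, was at 1.95, 17.6 and 4.62 CPM against 1749, 1510 and 3049 CPM (-8.03 ± 0.89, adjusted p = 7.0e-05). Sost, which blocks Wnt signalling in bone, had 4 reads in ESC-OB GFP+, all in replicate 2, and 8.13, 21.0 and 17.3 CPM in the bone chip cells. Ptprz1 (-7.16 ± 0.20), Phex (-7.67 ± 0.90), Tnc (-6.45 ± 0.28) and Cd44 (-5.05 ± 0.17) went the same way. Pdpn, a membrane protein of early osteocytes and of lymphatic and epithelial cells, was higher (1.47 ± 0.16), and so was Capg (0.65 ± 0.23), which lost its call in 4 of the 6 fits that left out 1 library, without ESC-OB replicate 1 among them (0.33, adjusted p = 0.0564).

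Collagen and its machinery were lower as a group. Of 28 tested genes for fibrillar collagens and their assembly, 24 were lower and 3 higher (median -2.94). Col1a2, the partner chain of Col1a1, was at 1738, 4613 and 2467 CPM against 144400, 125200 and 156100 CPM (-5.59 ± 0.53). Col24a1, a minor fibrillar chain of bone, differed by -8.20 ± 0.65, and the type XI chains Col11a2 and Col11a1 by -6.27 ± 0.88 and -6.15 ± 0.32. Of 23 enzymes and chaperones that modify collagen, 19 were lower and 3 higher (median -1.80, and -0.49 with library totals). The cross-linking oxidases Loxl4 (-6.05 ± 0.28), Loxl2 (-4.56 ± 0.21) and Lox (-3.18 ± 0.27), the prolyl hydroxylase subunit P4ha1 (-3.36 ± 0.17) and the collagen chaperone Serpinh1 (-2.10 ± 0.24) all passed the test. Serpinh1 still stood at 926, 750.5 and 1267 CPM in ESC-OB GFP+.

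For the vesicle trafficking genes whose knockdown raised mineralised nodule formation in the study, the direction rested on the scaling. The study knocked down further trafficking genes, which are not in this list. Of 15 such genes, 11 were lower and 2 higher with a median of -0.97 under TMM, whereas with library totals 1 was lower and 7 were higher with a median of 0.35. The study chose these genes on libraries that include these, so the list is not independent evidence of a direction. Sec24d, an inner coat subunit of COPII vesicles, was at 136, 121 and 154 CPM against 363, 347 and 412 CPM (-1.45 ± 0.15, adjusted p = 4.4e-05). With library totals Sec24d was at -0.14 and was not called. Ramp1, a receptor accessory protein, had the largest difference of the list under TMM, 17.4, 27.3 and 18.3 CPM against 93.0, 93.1 and 97.1 CPM (-2.17 ± 0.18, and -0.87 with library totals). Golph3 (-1.60 ± 0.13), Cog6 (-1.47 ± 0.16) and Golga2 (-1.37 ± 0.13), all of the Golgi, were lower under TMM. With library totals they were at -0.29, -0.16 and -0.07 and were not called. Gosr2 (-0.35), Arf4 (-0.38), Golga4 (-0.49), Bet1 (-1.03), Myo18a (-0.97), Pacs1 (-1.14) and P4ha2 (-0.83) were lower under TMM but turned to 0.96, 0.93, 0.81, 0.28, 0.35, 0.16 and 0.48 with library totals. Aplp1 and Stx5a were higher (0.84 ± 0.13 and 0.35 ± 0.11, and 2.15 and 1.66 with library totals). Of the 6 fits that left out 1 library, Arf4 lost its call in 5 and Gosr2 and Stx5a in 3 each. Rab2a and Preb were not called under TMM.

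The wider export pathway behaved likewise. Of 23 genes of the COPII coat and vesicle budding, 13 were lower and 5 higher (median -0.58, turning to 0.73 with library totals), and of 24 genes of endoplasmic reticulum stress 15 were lower and 1 higher (median -0.51, turning to 0.79). Mia3, the receptor that loads procollagen into vesicles, was at 89.4, 88.8 and 104 CPM against 351, 345 and 349 CPM (-1.89 ± 0.13). Sec16b (-2.93 ± 0.34), Lman1 (-1.91 ± 0.15) and the endoplasmic reticulum chaperones Hyou1 (-2.98 ± 0.19) and Hsp90b1 (-1.70 ± 0.23) were also lower, while Hspa5 was not called (-0.20 ± 0.27, turning to 1.11 with library totals).

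Cartilage genes were a further part of the bone chip profile. Of 18 tested chondrocyte genes, 13 were lower in ESC-OB GFP+ and 2 higher (median -4.46). Of these, 4 reached the minimum count in bone chip GFP+ (hi) only, and of the other 14, 9 were lower and 2 higher (median -4.09). Col2a1, the collagen of cartilage, stood at 6.56, 7.68 and 11.25 CPM against 5996, 7704 and 6716 CPM (-9.65 ± 0.36, adjusted p = 6.0e-07). Aggrecan (Acan, -8.76 ± 0.65), Col10a1 of hypertrophic cartilage (-8.74 ± 0.79) and the link protein Hapln1 (-8.96 ± 0.73) followed. Chondrocyte transcripts thus moved with the osteoblast genes, and their part in the differences above was not tested.

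Epithelial genes were higher in ESC-OB GFP+. Of 20 tested genes of stratified epithelium 19 were higher and none was lower (median 5.16), and all 25 tested genes of simple epithelium and its junctions were higher (median 8.15, or 7.76 with the 3 genes that had no bone chip read set at their lower bound). Of these, 12 of the stratified and 23 of the simple list reached the minimum count in ESC-OB GFP+ only, so they could hardly come out lower. Of the 8 stratified genes that reached it in every library 7 were higher, with a median of 4.04, and both such simple genes were higher: Spint2, a protease inhibitor (4.41 ± 0.24), and the protease St14 (3.58 ± 0.20). Krt17, a keratin of activated and appendage epithelium, had 509, 461 and 538 CPM in ESC-OB GFP+ and no read in bone chip GFP+ (hi), which makes it at least 4550-fold higher against a floor of 3 counts over the group. Krt8 had 838, 721 and 843 CPM against 0, 0.108 and 0.207 CPM, a ratio of 7260 with a counting interval of 2490 to 35200. Krt19 was at 1179, 499.5 and 751 CPM against 0.986, 2.69 and 0.621 CPM (9.13 ± 0.56). Every ESC-OB library carried these keratins at 461 CPM or more, and no bone chip library reached 3 CPM. Perp, a desmosome protein (10.86 ± 0.37), differed likewise. The epithelial factor Elf3 had a ratio of 4510 (809 to 178000), and the protease inhibitor Spint1 and Krt23 were at least 1570-fold and 1470-fold higher. These genes were lowest in ESC-OB replicate 1 in only 1 of 20 and 2 of 25 cases, unlike the bone genes.

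A further 12 genes of the stratified list and 7 of the simple list were present only in the ESC table, and were left out of the fit because nothing was recorded for them in the bone chip table. Symbols of that kind took 1.92, 1.07 and 1.33% of all counts in the 3 ESC-OB libraries. The smallest row in the bone chip table summed to 2 counts over its libraries, so genes without reads there had not been kept.

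**Figure D2:**
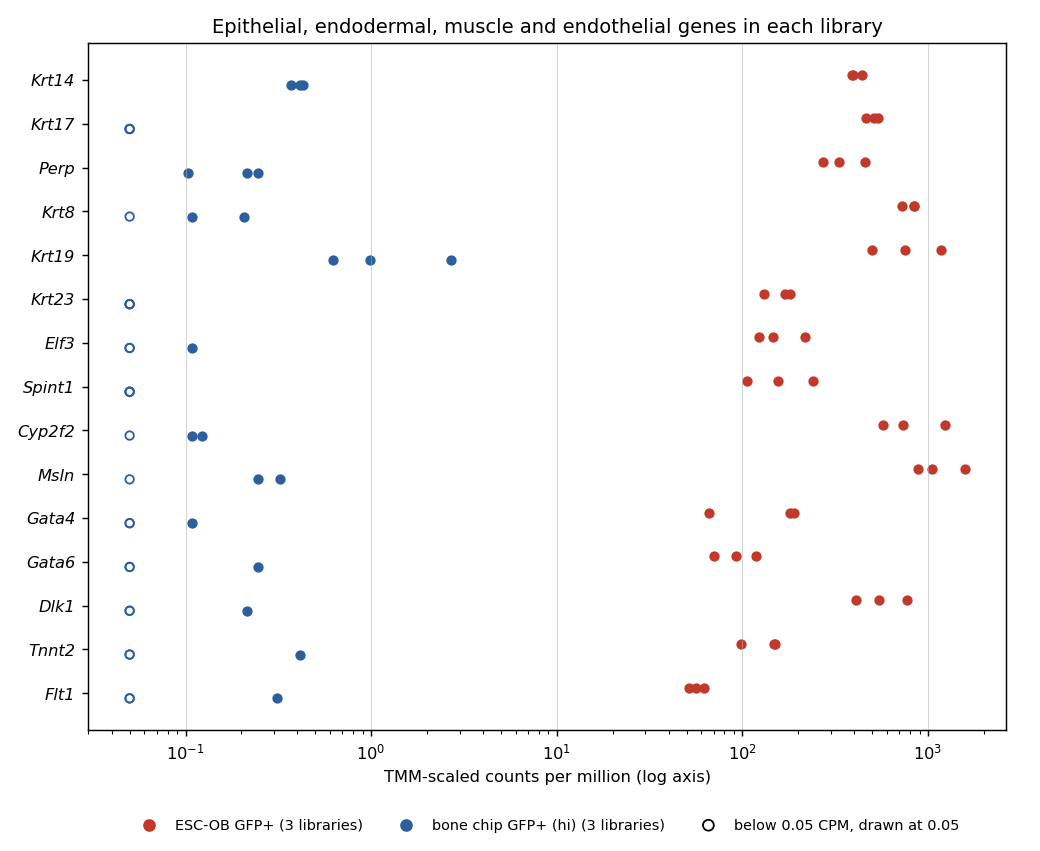
Levels of 15 epithelial, endodermal, muscle, endothelial and imprinted genes in each library, as TMM-scaled CPM on a log axis, drawn as for the osteoblast genes. For every gene the 3 ESC-OB GFP+ libraries lie to the right of all bone chip libraries, many of which are open points under 0.05 CPM.

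Genes of airway, gut and liver lineages were recorded mostly in ESC-OB GFP+. Of 9 tested airway genes 7 were higher and none was lower (median 4.22, or 3.21 with 1 gene at its bound), with Cyp2f2, a cytochrome of club cells, at 1241, 571 and 731 CPM against 0.123, 0.108 and 0 CPM (ratio 11900, 3290 to 98200). Of 14 tested genes of endoderm and liver 12 were higher and none was lower (median 5.40). A further 11 airway genes and 10 endoderm and liver genes stood only in the ESC table. Of those tested, 6 airway and 11 endoderm and liver genes reached the minimum count in ESC-OB GFP+ only. Of the 3 of each list that reached it in every library, 2 airway genes and 1 endoderm gene, the factor Foxa2 (4.36 ± 0.32), were higher and the others were not called. Gata4 and Gata6, factors of endoderm and heart, had 180, 65.8 and 191 CPM and 119, 70.4 and 92.7 CPM in ESC-OB GFP+ and 1 and 2 reads in all 3 bone chip libraries together. Apoa1, a liver and gut apolipoprotein, was at 118, 332 and 54.6 CPM against 0.246, 0.431 and 0.414 CPM (8.81 ± 0.91). Afp, of fetal liver and yolk sac, had 3.17, 27.8 and 0.504 CPM in the ESC-OB libraries.

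Muscle and vessel genes were higher for the most part. Of 15 smooth muscle genes 11 were higher and 1 lower (median 2.97), of 9 skeletal and cardiac muscle genes 7 were higher and 1 lower (median 4.28), and of 15 endothelial genes 10 were higher and 2 lower (median 3.56). Among the 9 skeletal and cardiac muscle genes, 5 reached the minimum count in ESC-OB GFP+ only and 1 in bone chip GFP+ (hi) only. Of the 3 that reached it in every library 2 were higher and none lower (median 2.45). A further 10 of that list stood only in the ESC table. Of the 11 smooth muscle genes that reached the minimum count in every library 7 were higher and 1 lower (median 1.86), whereas all 10 endothelial genes that were higher had reached it in ESC-OB GFP+ only, and of the 4 that reached it in every library none was higher and 1, Eng, was lower. Tnnt2, cardiac troponin T, was at 98.7, 149 and 150 CPM against 0, 0 and 0.414 CPM (9.76 ± 0.49, but 14.71 without bone chip replicate 3, which held all of its bone chip reads), and Myh11, smooth muscle myosin, at 30.7, 50.3 and 22.2 CPM against 0.123, 0.216 and 0.207 CPM (7.50 ± 0.50). Flt1, a receptor for vascular growth factor, was at 51.7, 56.1 and 62.2 CPM, with 3 reads over the bone chip libraries. The pericyte proteoglycan Cspg4 (-5.91 ± 0.48) and the receptor Eng (-3.27 ± 0.25) were lower. Summed over the list, smooth muscle genes came to 999 to 2137 CPM of the library total (without TMM) in ESC-OB GFP+ and 848 to 1177 in bone chip GFP+ (hi), ranges that overlap.

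Stromal genes went both ways. Of 28 fibroblast and progenitor genes 15 were higher and 5 lower, and of 14 genes of marrow stroma and fat 7 were higher and 3 lower. In each list 3 genes, Pi16 among them, reached the minimum count in ESC-OB GFP+ only and could hardly come out lower. Of the 25 fibroblast and progenitor genes that reached it in every library 12 were higher and 5 lower (median 0.63). Of the 11 such genes of marrow stroma and fat 5 were higher and 3 lower (median -0.2). Pi16, of adventitial fibroblasts, was at 67.3, 60.4 and 61.3 CPM against 0.123, 0.216 and 0.103 CPM (8.68 ± 0.23). Fibronectin (Fn1) was lower, at 549, 723 and 787 CPM against 49220, 49440 and 38620 CPM (-6.06 ± 0.35), and so were Fap (-6.94 ± 0.45) and S100a4 (-5.92 ± 0.21). Cxcl12, the stromal chemokine, was not called (-0.59 ± 0.25).

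Macrophage transcripts were more abundant in bone chip GFP+ (hi). Of 20 tested genes of macrophages and osteoclasts 16 were lower in ESC-OB GFP+ and 1 was higher (median -3.91), and of the 13 that reached the minimum count in every library 10 were lower and 1 higher (median -1.98). Summed over the list they came to 337 to 428 CPM of the library total (without TMM) in ESC-OB GFP+ and 709 to 1159 in bone chip GFP+ (hi). The pan-leukocyte gene Ptprc was at 0.024, 0 and 0.112 CPM against 13.3, 18.65 and 10.04 CPM (-8.09 ± 0.58), and Emr1 (F4/80) at 0.240, 0.127 and 0.112 CPM against 43.0, 64.0 and 29.4 CPM (-8.07 ± 0.42). Of the 15 largest falls, Ccl4, Il1b, Marco, Ms4a7 and Ccl3 are genes of such cells. Lysozyme (Lyz2) was at 11.1, 40.0 and 9.57 CPM against 600, 701 and 454 CPM (-4.86 ± 0.58). Macrophage transcripts moved with the bone genes in this contrast, and their part in it was not tested.

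Hox genes split by their place in the cluster. None of 19 tested Hox genes was higher, 13 were lower and 6 were not called (median -2.63), and with library totals 4 were higher and 9 lower (median -1.34). All 11 tested genes of paralog groups 5 to 11 were lower, by -2.22 to -7.34 with a median of -4.39, whereas of 8 tested genes of groups 1 to 4, which pattern the hindbrain and neck, 2 were lower (Hoxb3 and Hoxc4) and the median was 0.13. With library totals 9 of the 11 were lower and none higher, while 4 of the 8 were higher and none lower. Of the 11, 8 reached the minimum count in bone chip GFP+ (hi) only and could hardly come out higher, and 3 reached it in every library. Hoxa10, at chr6:52181196-52190853 (mm9), had 0.360, 0.253 and 0.364 CPM against 19.8, 16.9 and 17.8 CPM (-5.77 ± 0.24, adjusted p = 7.6e-07). Its neighbour Hoxa11 had 0, 0 and 0.140 CPM against 10.5, 7.22 and 7.46 CPM (-7.34 ± 0.73). Hoxa2 was at 0.456, 2.28 and 1.62 CPM against 0.493, 0.755 and 0.518 CPM and was not called (1.28 ± 0.66). Hoxb3 lost its call in 4 of the 6 fits that left out 1 library and turned to 0.09 with library totals. The split at group 5 was drawn after the values were seen.

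**Figure D3:**
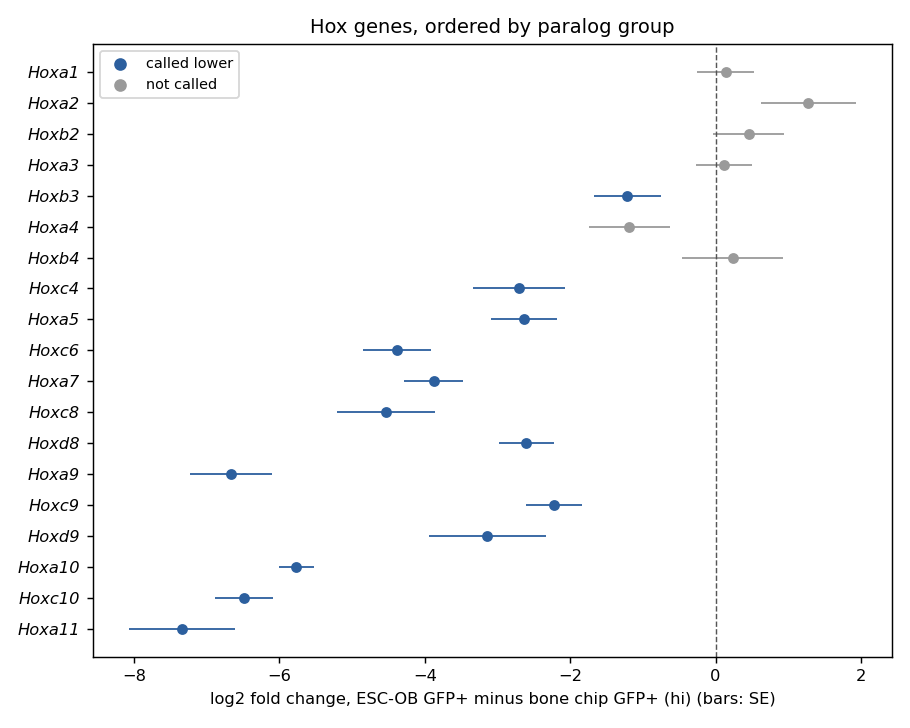
Log2 fold changes of the 19 tested Hox genes (x axis, ESC-OB GFP+ over bone chip GFP+ (hi), bars are SE), ordered from the lowest paralog group at the top; blue points were called lower and grey points were not called. The 11 genes of groups 5 to 11 lie between -7.34 and -2.22, and 6 of the 8 genes of groups 1 to 4 are grey.

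Other patterning factors followed no common direction: 9 of 22 (40.9%) were higher, 8 (36.4%) lower and 5 not called (median 0.54). These shares were near the 37.6% and 32.2% of all genes tested. Among the 22, 7 reached the minimum count in ESC-OB GFP+ only and 2 in bone chip GFP+ (hi) only. Of the 12 that reached it in every library 4 were higher and 6 lower (median -0.09). Pax1 and Pax9, factors of the sclerotome and of the pharynx, were at 29.1, 21.5 and 26.7 CPM and 17.2, 11.4 and 12.9 CPM in ESC-OB GFP+, against at most 0.311 and 1.08 CPM in a bone chip library (6.61 ± 0.28 and 4.54 ± 0.41). Six2 (4.50 ± 0.43), Hand2 (3.65 ± 0.64), Meis1 (2.79 ± 0.19) and Barx1 (2.65 ± 0.24) were higher. The limb factors Shox2 (-6.02 ± 0.47), Tbx15 (-4.45 ± 0.27), Prrx1 (-2.88 ± 0.37) and Tbx4 (-2.83 ± 0.38) were lower. Pitx1, of the hindlimb, was not called (0.35 ± 0.34).

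Pluripotency transcripts were low but detectable in ESC-OB GFP+. Of 9 tested genes 8 were higher and 1, Klf4, was lower (median 3.22, or 2.86 with 2 genes at their bound), and 7 of the 9 reached the minimum count in ESC-OB GFP+ only. Sox2, which neural and foregut cells also use, had 9.92, 7.90 and 11.2 CPM against no read in the bone chip libraries, at least 87.8-fold higher. Pou5f1 (Oct4) had 0.841, 0.632 and 0.924 CPM, at least 7.28-fold higher. When the 12 libraries of both tables were put on 1 scale, Pou5f1 averaged 743 CPM in ESC and 0.862 CPM in ESC-OB GFP+.

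Cell cycle genes were higher. Of 34 tested, 21 were higher and 4 lower (median 1.41), with Cdc6 at 12.1, 5.88 and 6.83 CPM against 0.863, 0.755 and 0.621 CPM (3.47 ± 0.40) and Cdc20 at 35.3, 14.7 and 27.0 CPM against 3.33, 2.05 and 4.97 CPM (2.89 ± 0.40). Pcna, the sliding clamp of replication, was lower (-0.42 ± 0.12) and turned to 0.89 with library totals. Of 21 cell cycle inhibitors and p53 targets 12 were higher and 7 lower. Cdkn2a, a gene of senescence and of long culture, had 0.624, 0.822 and 0.308 CPM against 72.2, 66.9 and 63.0 CPM (-6.85 ± 0.28), and Cdkn1c, an imprinted growth inhibitor, had 165, 388 and 346 CPM against 11.7, 11.5 and 15.3 CPM (4.54 ± 0.34).

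Imprinted genes were more often higher than lower. Of 33 tested, 19 were higher and 7 lower (median 1.08), and of the 22 that reached the minimum count in every library 11 were higher and 5 lower. Dlk1, an inhibitor of differentiation made by fetal mesenchyme and liver, stood at 408, 775 and 548 CPM in ESC-OB GFP+ and had 2 reads over the bone chip libraries (ratio 7570, 2100 to 62500). Igf2, the fetal growth factor, was at 332, 911 and 719 CPM against 5.05, 7.55 and 3.31 CPM (6.95 ± 0.49). Grb10, a brake on growth factor receptors, was lower (-2.41 ± 0.31).

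Signalling pathways held genes of both directions. Of 25 Wnt antagonists and targets 10 were higher and 11 lower, and with library totals 14 were higher and 7 lower. Among the 25, 6 reached the minimum count in ESC-OB GFP+ only and 2 in bone chip GFP+ (hi) only. Of the 17 that reached it in every library 4 were higher and 9 lower under TMM (median -0.91). Rspo1, with 1 read over the bone chip libraries, was higher by a ratio of 530 with a counting interval of 95 to 20900, and Nkd1 was higher (6.16 ± 0.37), while the antagonists Wif1 and Sfrp4 were lower (-5.73 ± 0.65 and -5.58 ± 0.49). Of 35 genes of BMP and TGF-beta signalling 10 were higher and 17 lower, with a median of -0.27 that turned to 1.04 with library totals. Bmp6 (4.75 ± 0.28) and Bmpr1b (4.75 ± 0.31) were higher, and Gdf5 (-5.32 ± 0.48) and Bmp8b (-4.75 ± 0.32) were lower. Of 21 matrix metalloproteinases and their inhibitors 7 were higher, 7 lower and 7 not called, with Timp1 lower (-4.36 ± 0.40) and Timp4 higher (5.95 ± 1.03).

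Glycolytic genes were lower. Of 30 genes of glycolysis and the response to low oxygen, 26 were lower and 1, the glucose transporter Slc2a3, was higher (median -2.22, and -0.92 with library totals, where 19 were lower and 6 higher). Pgk1 was at 134, 134 and 111 CPM against 1671, 1656 and 1357 CPM (-3.63 ± 0.18), and Gapdh at 443, 489 and 347 CPM against 3807, 3983 and 2786 CPM (-3.05 ± 0.23). Car9, a target of the low oxygen response, was lower by a like amount (-4.17 ± 0.31).

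Immune and early response genes were divided. Of 28 interferon and immune genes 15 were higher, with Oas1a (2.37 ± 0.16) and Oas2 (2.26 ± 0.17) among them, and 5 were lower, with Ccl5 (-5.46 ± 0.62) and H2-Ab1 (-4.23 ± 0.26). Of 21 immediate early genes, which respond to stress and cell dissociation, 12 were higher and 2 lower, with Jun at 880, 926 and 1107 CPM against 229, 192 and 308 CPM (2.00 ± 0.21) and Fosb lower (-1.43 ± 0.24). Neural genes were higher in 6 of 13, among them Gfap (ratio 90.0, 24.8 to 744), and lower in 2, and of the 4 that reached the minimum count in every library none was higher.

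Genes often used as references did not hold level. Of 8, 1 was higher and 4 were lower, and the median of -0.68 turned to 0.63 with library totals. Hprt was at 69.9, 71.9 and 56.8 CPM against 54.6, 59.2 and 53.02 CPM and was not called (0.25 ± 0.13), but it was 1.56 with library totals. Actb was lower (-1.12 ± 0.18) and turned to 0.19. Rn45s took 0.290, 0.690 and 0.315% of counts against 12.5, 11.9 and 8.01%, in libraries made from poly-A RNA, so the share of ribosomal RNA also differed between the groups, and its part in the results was not tested. Leaving Rn45s and Col1a1 out of the fit gave 5335 genes higher and 4569 lower. Xist was at 28.2, 53.2 and 29.4 CPM against 401, 378 and 318 CPM (-3.31 ± 0.27).

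**Figure D4:**
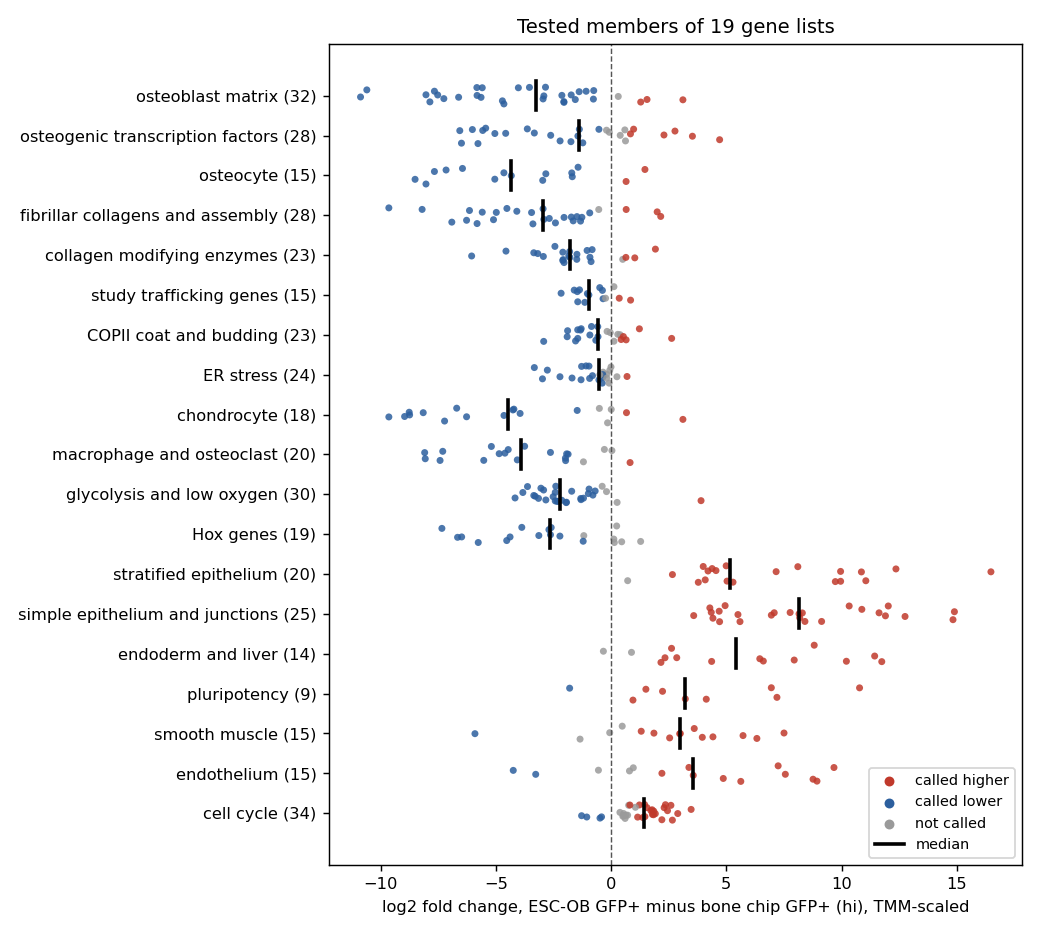
Log2 fold changes (x axis, TMM-scaled, ESC-OB GFP+ over bone chip GFP+ (hi)) of the tested members of 19 gene lists, with the number of members in brackets; red was called higher, blue lower and grey not called, and the black bar is the median. The medians run from -4.46 for chondrocyte genes to 8.15 for simple epithelium, and those of the trafficking, COPII and stress lists are -0.97, -0.58 and -0.51.

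The GFP- cells of the bone chip cultures gave a further yardstick. On a scale of 12 libraries, Col1a1 averaged 7.33 CPM in ESC, 3952 in ESC-OB GFP+, 35370 in bone chip GFP- and 220300 in bone chip GFP+ (hi). Sp7 averaged 0.120, 1.66, 27.3 and 150 CPM in the same order, and Runx2 0.0272, 11.6, 108 and 274 CPM. Of all 14200 genes, every ESC-OB library lay below every bone chip GFP- library for 33.2% and above for 39.3%. Of the 32 matrix genes, 25 lay below and 4 above. For the osteogenic factors the counts were 19 below and 2 above of 28, for the fibrillar collagens 27 below of 28, and for simple epithelium 25 above of 25. For most of its bone genes, ESC-OB GFP+ therefore lay under the cells that the bone chip sort had set aside as GFP-. ESC-OB GFP+ lay above ESC for Col1a1, Sp7 and Runx2. Alpl, which undifferentiated stem cells also express, averaged 230 CPM in ESC and 27.6 CPM in ESC-OB GFP+.

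**Figure D5:**
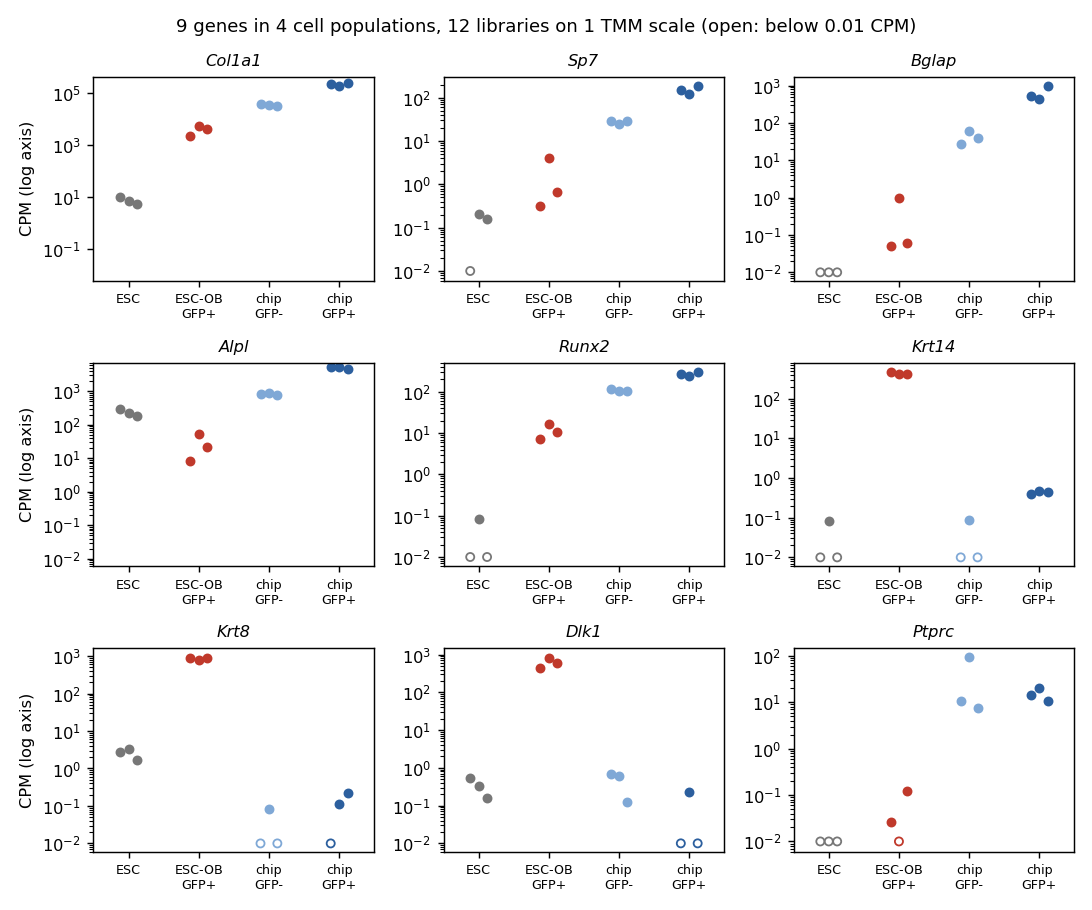
CPM on a log axis of 9 genes in 12 libraries of 4 populations (ESC, ESC-OB GFP+, bone chip GFP- and bone chip GFP+), with 1 point per library and open points under 0.01 CPM. Col1a1, Sp7 and Runx2 step up from ESC to bone chip GFP+, while Krt14, Krt8 and Dlk1 are highest in ESC-OB GFP+.

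The remaining libraries of the same tables show how far such tables differ in other cells. Between ESC and bone chip GFP-, which share no library with the main contrast, 5341 of 13457 genes (39.7%) were higher in ESC and 5615 (41.7%) lower. Values for the genes above were not the same there: Gapdh was at -0.06, Actb at -0.39, Hprt at 1.54 and Rn45s at -1.16, where the main contrast gave -3.05, -1.12, 0.25 and -5.93. Hoxa10 was at -7.52 and Col1a1 at -12.25, and Krt14, with few reads in both groups, did not reach the test.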

How the data were processed

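RNA of 6 mouse culture libraries was analysed, with 6 further libraries of the same tables (ESC and bone chip GFP-) for reference. Per the submitters' notes and the study's methods, the authors sequenced poly-A RNA in paired ends, aligned reads with STAR 2.4.2a to mm9 and compared RefSeq genes with DESeq2 in R 3.2.2. The counting tool and strand setting are not given in the sources used here. The deposited values are raw counts per gene, in 1 table per source. The third table, of bone cells, was not used here. No column of unmatched samples was present, and rows whose symbols had been turned into dates (27 in the ESC table, 25 of those families in the bone chip table) were left out.

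Tables were joined by exact symbol, filtered (edgeR 4.0.16 filterByExpr, minimum count 10), scaled by TMM and tested with glmQLFit and glmQLFTest (R 4.3.3) at a Benjamini-Hochberg adjusted p under 0.05. The 6 libraries were fitted on their own and without a replicate block, since same-numbered replicates did not deviate together. The fit was also run on simulated counts in which few genes changed, unlike this contrast, so that run does not bear on the calls here. Alternatives were RLE, upper-quartile and no scaling factors, DESeq2 1.42.0, other filters, thinning to 13212678 counts, 12 libraries fitted together, a block, a log2 threshold of 1 (glmTreat) and leaving out each library. Scaling by library totals was added after seeing the data. Intervals of ratios (95%) and the floor of 3 counts cover counting error only.

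The members and the 35 gene lists were chosen with earlier results of these data known. The rule for named genes took Col1a1, Sp7 and Krt14. It also took the 15 largest rises and 15 largest falls among called genes with separate libraries and at least 10 CPM in the higher group. All members of the osteoblast, osteogenic factor, osteocyte, limb and Hox lists were taken. From each other list came up to 5 called members with the largest change and 2 of the highest level. Last came the study's trafficking genes listed above with P4ha1 and P4ha2, and reference and sex-linked genes. Of the genes that this rule takes, 1 is left out here by name but is counted in its list. Figures were drawn with matplotlib 3.10.9, and positions come from GENCODE vM1 on mm9.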

Additional observations from a re-analysis of the deposited data

How the results depend on the processing

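Counts of genes called stayed within 1.5 times the reported ones (5345 higher, 4578 lower) under RLE and upper-quartile factors, DESeq2, other filters, thinning, the joint fit, the replicate block (5124 higher, 4481 lower), leaving out Rn45s and Col1a1, and setting absent symbols to 0. Leaving out each library gave 4656 to 5410 higher and 4113 to 4695 lower, and for ESC against bone chip GFP- 4902 to 5626 higher and 5323 to 5788 lower. Against a log2 change of 1, 2533 were higher and 2310 lower, since this test asks for more than a difference from 0. Scaling by library totals gave 10500 higher and 1640 lower. It turned the medians of the COPII (0.73), trafficking (0.35), endoplasmic reticulum stress (0.79), BMP and TGF-beta (1.04) and reference (0.63) lists. It also turned Actb (0.19), Ank (0.54), Arf4 (0.93), Bet1 (0.28), Cxcl12 (0.71), Enpp1 (0.55), Foxc1 (1.10), Golga4 (0.81), Gosr2 (0.96), Hoxb3 (0.09), Hspa5 (1.11), Myo18a (0.35), P4ha2 (0.48), Pacs1 (0.16), Pcna (0.89), Rab2a (1.07) and Runx1 (1.23). No other alternative turned a median or a called gene.

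Of 174 genes named, 8 lost their call without 1 library: Arf4, Capg, Gosr2, Hey1, Hoxb3, Msx1, Stx5a and Twist1. Leaving out ESC-OB replicate 2 moved 27 called genes by over 1.5 times, most of them bone or cartilage genes, and the other 5 libraries moved 3 to 12 each. Same-numbered replicates did not deviate together (correlations -0.01, -0.071 and 0.005), so the numbers do not pair the samples. The ESC-OB libraries were deeper, and genes without bone chip reads have only a lower bound for their fold.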

Other observations

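Basement membrane genes, a family looked at after the values had been seen, were high in ESC-OB GFP+. Of its 23 genes, all tested, 17 were higher and 6 lower (median log2 fold change 3.78, adjusted p by edgeR's quasi-likelihood test). Col4a1, the main chain of type IV collagen, had 5637, 2587 and 6342 CPM in ESC-OB GFP+ and 14.67, 16.6 and 8.49 CPM in bone chip GFP+ (hi), a log2 fold change of 8.52. The laminin chain Lama1 averaged 1233 against 4.23 CPM (8.19). Perlecan (Hspg2) and Col15a1 went the other way, at 90.3 against 1928 CPM (-4.42) and at 1.99 against 179.7 CPM (-6.51). Of 8 tested genes of mesothelium, chosen in the same way, 7 were higher and Tbx18 was lower, with Msln at 1574, 882 and 1056 CPM in the ESC-OB libraries and 5 reads in all over the bone chip libraries. Of those higher, Msln, Upk3bl, Bnc1, Cldn15, Wt1 and Krt19 did not reach the minimum count in every bone chip library, so they could hardly come out lower. Upk3b, Upk1b, Lrrn4 and Gpm6a stood only in the ESC table and were not tested.

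Housekeeping families, also looked at after the values had been seen, moved apart from each other. Of 76 cytosolic ribosomal protein genes 66 were lower and 4 higher (median -1.68, and -0.38 with library totals). Of 89 nuclear genes of the respiratory chain 59 were higher and 7 lower (median 0.57, and 1.88 with library totals). Of 39 proteasome subunits 30 were higher and 1 lower (median 0.62, and 1.93 with library totals). The medians over all genes tested were 0.12 and 1.43. ESC-OB replicate 2 was the highest of the 3 ESC-OB libraries for 94.7% of the ribosomal protein genes and 88.8% of the respiratory genes, against 37.6% of all genes tested.

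Among genes far lower in ESC-OB GFP+, 3 of ion transport were picked after their values were seen. The sodium channel Scn1a was at 110, 104 and 132 CPM in the bone chip libraries against 0, 0.0948 and 0.224 CPM, the sodium and calcium exchanger Slc8a3 at 144, 109 and 169 CPM against 0.144, 0.221 and 0.364 CPM, and the potassium channel Kcnj3 at 12.7, 13.5 and 14.2 CPM against no read (at least 490-fold).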
